A study of Mus musculus with 7 samples.

Results

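The genes described here are the 6 that encode the surrogate light chain and the signaling chains of the pre-B cell receptor (pre-BCR): *Igll1*, *Vpreb1*, *Vpreb2*, *Vpreb3*, *Cd79a* and *Cd79b*. They were chosen by symbol, with earlier results of these data known. They are 6 of the 24341 genes in a table of RNA-seq expression in leukemic and preleukemic Eμ-Ret mice. All 6 were among the 10541 genes that passed the filter on low values, a sum of at least 10 FPKM over the 7 samples. FPKM is the number of sequenced fragments of a gene, scaled to the length of its transcript and to the mapped total of the sample.

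Every mouse was an Emu-Ret hemizygote on a BALB/c background, in which a *Ret* fusion gene is driven by the IgH enhancer and so is expressed in the B lineage. Both groups carry the transgene, and cells without it were not analysed here. The preleukemic group held 4 samples of BP-1+ B-cell precursor (BCP) cells from young, healthy mice, and the leukemic group held 3 samples of BP-1+ BCP cells from older, moribund mice with overt disease, in which age and disease cannot be told apart. The cells were sorted from spleen by flow cytometry, and the labels give no treatment. The labels number the samples within each group and do not say that each is another mouse, so the p-values measure the spread between these samples.

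At the pro-B to pre-B stage, before a cell has rearranged a light chain gene, the new heavy chain pairs with a surrogate light chain made of the λ5 protein (*Igll1*) and a VpreB protein (*Vpreb1* or *Vpreb2*). This complex reaches the cell surface with CD79A (Igα) and CD79B (Igβ), whose cytoplasmic tails carry the tyrosine motifs that recruit the kinase SYK. A cell that signals through the pre-BCR proliferates for a short time and then turns the surrogate light chain genes off, whereas *Cd79a* and *Cd79b* stay on through the mature B-cell stage.

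*Vpreb1* and *Vpreb2* are near-identical copies, which bears on every value of either. Their coding sequences, in the GENCODE M21 transcripts on GRCm38, are 429 bases each and differ at 9 of them (97.9% identical). A stretch of 120 coding bases (268 to 387, within 1 exon) that holds 6 of these differences is shown, with the differing bases in capitals. It lies at chr16:16868638-16868757 on the minus strand for *Vpreb1* and at chr16:17980919-17981038 on the plus strand for *Vpreb2*.
Vpreb1: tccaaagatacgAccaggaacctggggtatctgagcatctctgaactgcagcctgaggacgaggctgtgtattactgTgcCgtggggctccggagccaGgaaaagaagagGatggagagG
Vpreb2: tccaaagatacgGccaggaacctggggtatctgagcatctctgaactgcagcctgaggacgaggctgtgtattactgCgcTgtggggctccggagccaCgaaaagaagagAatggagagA
Of all 50-base stretches of the *Vpreb2* transcript, 32.8% occur in *Vpreb1* without a mismatch, and of all 100-base stretches, 14.7% do. How fragments that match both genes were counted is not given in the sources used here, so the level of each of the pair is uncertain by the fragments they share. The deposited row of *Vpreb2* also spans 516 bases, against 846 for its GENCODE transcript, while that of *Vpreb1* spans 855.

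The upstream sequences of the pair were alike too. Promoter windows of 300 bases (250 before to 50 after the start, RefSeq, GRCm38.p6, a C57BL/6J reference) were found for 5 of the 6 genes. The 106 bases before the *Vpreb1* start (chr16:16869256-16869361, minus strand) matched the first 106 bases of the *Vpreb2* window (chr16:17980315-17980420, plus strand) with 2 differences. Capitals mark CAGGTG, an E-box of the type that the E2A proteins bind.
Vpreb1: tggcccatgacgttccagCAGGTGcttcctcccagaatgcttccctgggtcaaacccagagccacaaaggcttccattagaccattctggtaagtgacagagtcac
Vpreb2: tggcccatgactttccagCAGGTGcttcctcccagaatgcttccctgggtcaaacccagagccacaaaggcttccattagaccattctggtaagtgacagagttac
The motif CAGGTG, searched on both strands, was in the windows of 4 of the 5 genes (*Igll1*, *Vpreb1*, *Vpreb2* and *Cd79a*), against 20.3% of 32544 promoter windows. The matches of *Vpreb1* and *Vpreb2* lie in the copied stretch shown and so are not independent. They begin at -88 and -232 from the starts, and the *Vpreb2* start used lies 137 bases inside its GENCODE transcript. An exact match to the palindromic motif CCCNNGGG was in the window of *Igll1* alone among the 5, against 13.7% of all windows. The B-lineage factor EBF1 binds motifs of this type. Sites that differ from these letters were not searched for, so the other windows may hold one. The general E-box CANNTG, which includes CAGGTG, was in all 5 windows (72.3% of all windows), and the Ets-type GGAAGT, on both strands, was in those of *Vpreb3* and *Cd79a* (23.7% of all windows). The 250 bases before the starts of *Igll1* (chr16:16863986-16864235, minus strand) and *Cd79a* (chr7:24897247-24897496, plus strand) are shown because these 2 genes stand for the surrogate light chain and the signaling chains in the comparison of ratios. Capitals mark CAGGTG and CCCNNGGG, and in *Igll1* the E-box reads CACCTG, its reverse complement, and begins 8 bases before the start.
Igll1: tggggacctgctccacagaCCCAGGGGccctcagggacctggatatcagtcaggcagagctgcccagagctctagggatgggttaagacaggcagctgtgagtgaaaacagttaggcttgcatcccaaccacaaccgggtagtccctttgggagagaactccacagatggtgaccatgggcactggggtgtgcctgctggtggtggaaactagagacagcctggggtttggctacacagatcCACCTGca
Cd79a: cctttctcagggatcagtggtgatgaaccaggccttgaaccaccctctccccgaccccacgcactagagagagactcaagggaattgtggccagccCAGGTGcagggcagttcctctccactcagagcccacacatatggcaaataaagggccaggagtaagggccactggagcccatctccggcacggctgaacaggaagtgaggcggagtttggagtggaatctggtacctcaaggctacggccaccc
These matches describe the letters of a window, and no binding was measured.

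All 6 genes were highly expressed in preleukemic samples, and all 6 had lower means in leukemic samples. In the 4 preleukemic samples they ranked between position 12 and position 207 of the 24341 genes by FPKM. In the leukemic samples their ranks ran from 41 to 5209. The median log2 fold change (leukemic minus preleukemic, on log2(FPKM + 1)) of the 6 was -1.07, against -0.02 over all genes tested. Every leukemic value lay below every preleukemic value for 5 of the 6 genes, a pattern found in this direction in 17.1% of all genes tested. In the fit across all genes with limma, 2 of the 6 (*Igll1* and *Vpreb1*) were called lower at an adjusted p under 0.05, against 6.26% of all genes tested called lower (8.47% were called higher and 14.7% in either direction). None of the 6 was called higher by limma, and at an unadjusted p under 0.05 all 6 were lower and 0 higher, against 17.5% of all genes tested lower and 16.5% higher. In bulk samples, fewer cells that express a gene and less of its mRNA per cell cannot be told apart.

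**Figure D1:**
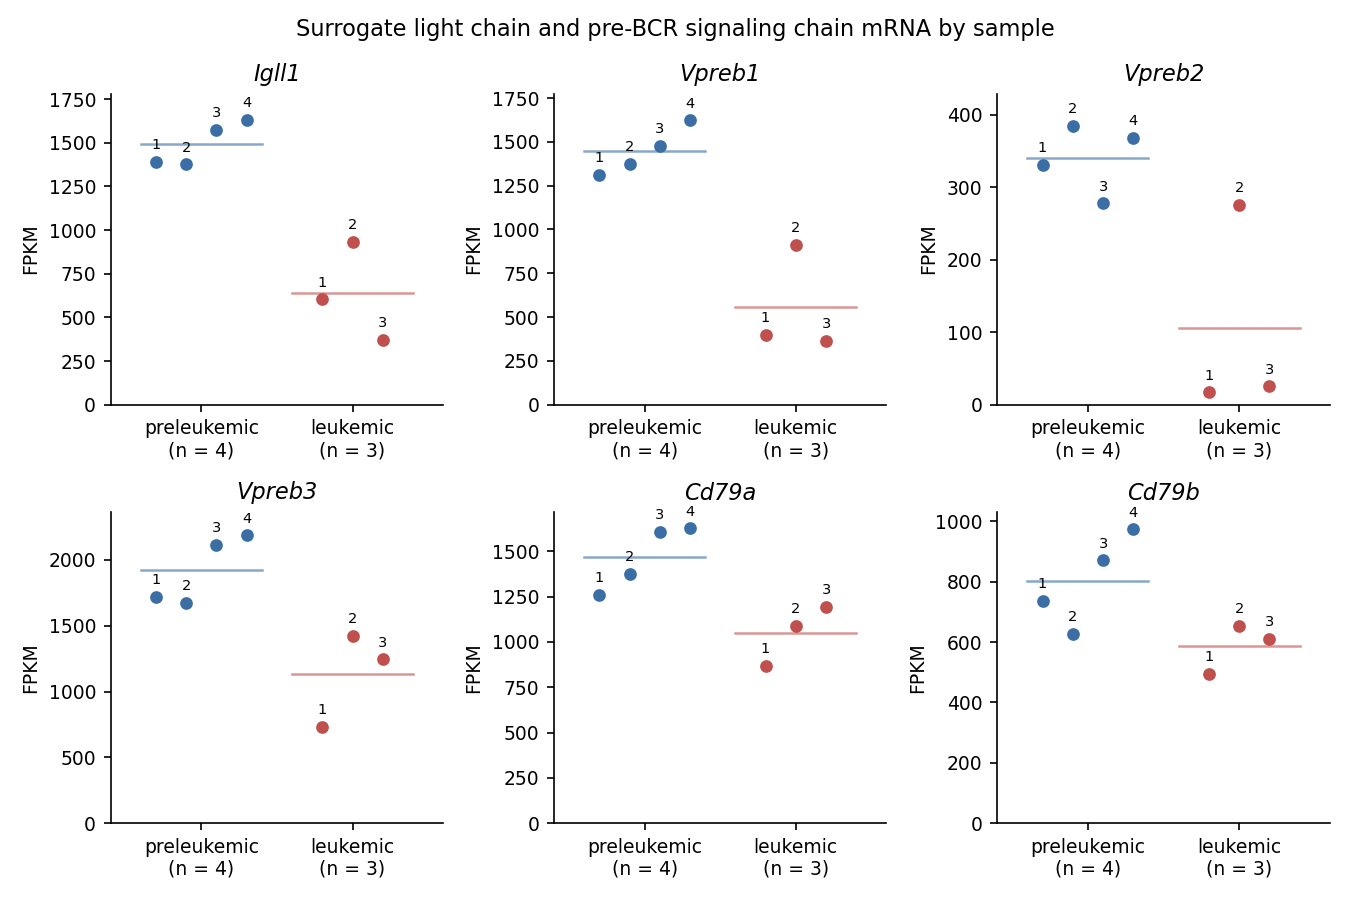
FPKM (y axis, from 0) of the 6 genes in the 4 preleukemic (blue) and 3 leukemic (red) samples, where each point is 1 sample with its replicate number and the line is the group mean. The groups overlap only for *Cd79b*, and the *Vpreb2* value of leukemic replicate 2 (276) sits just under that of preleukemic replicate 3 (278).

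*Igll1* (chr16:16860671-16863985, mm10), which encodes λ5, fell in leukemic samples. Its FPKM was 605, 934 and 373 in leukemic replicates 1 to 3 and 1390.15, 1377, 1574 and 1631 in preleukemic replicates 1 to 4. The highest leukemic value was well below the lowest preleukemic value. The means were 637 ± 282 (SD, n = 3) and 1493 ± 129 (SD, n = 4), and the log2 fold change was -1.32 (standard error, SE, 0.27, adjusted p = 0.0244 by limma), or 2.5-fold lower. *Vpreb1* (chr16:16868401-16869255), a VpreB chain gene beside *Igll1*, fell likewise. Leukemic replicates 1 to 3 had 399, 913 and 364 FPKM, and preleukemic replicates 1 to 4 had 1313, 1375, 1478 and 1625. Leukemic replicate 2 was again the highest of its group and below every preleukemic sample. The log2 fold change was -1.50 (SE 0.30, adjusted p = 0.0226 by limma), or 2.83-fold lower. Both calls depended on the preleukemic samples. Without preleukemic replicate 2, 3 or 4 neither gene passed (adjusted p from 0.0617 to 0.0812), and without preleukemic replicate 1 *Igll1* did not (adjusted p = 0.0509), while its log2 fold change stayed between -1.65 and -0.99 whichever of the 7 samples was left out.

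*Vpreb2* (chr16:17980565-17981080), the other VpreB gene, had the largest difference of the 6 and the widest leukemic spread. Its FPKM was 16.9, 276 and 25.4 in leukemic replicates 1 to 3 and 332, 385, 278 and 369 in preleukemic replicates 1 to 4. Leukemic replicates 1 and 3 were at 4.95% and 7.45% of the preleukemic mean, and leukemic replicate 2 was at 81.0%. The log2 fold change of -2.74 was the 8th lowest of the 10541 genes, but with a standard error of 0.86 it did not pass (adjusted p = 0.0712 by limma). Leukemic replicate 2 decided this, and without it the log2 fold change was -3.97 (adjusted p = 0.000751). Within the leukemic group the highest *Vpreb2* value was 16.4 times the lowest, against 2.51 times for *Vpreb1* and 2.503 times for *Igll1*.

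*Vpreb3* (chr10:75948312-75949646) lies on another chromosome and encodes a VpreB-like protein that is found inside the cell with immunoglobulin chains and is not part of the surface surrogate light chain. In leukemic replicates 1 to 3 its FPKM was 732, 1424 and 1245, and in preleukemic replicates 1 to 4 it was 1719, 1676, 2117 and 2189. It was the highest of the 6 genes in every sample except leukemic replicate 1, in which *Cd79a* was higher. The groups did not overlap, but the log2 fold change of -0.81 (SE 0.23) did not pass (adjusted p = 0.0555 by limma). Without leukemic replicate 2 it did, at -1.001 (adjusted p = 0.0352), and without leukemic replicate 1 it shrank to -0.52 (adjusted p = 0.0561).

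The signaling chains differed less. *Cd79a* (chr7:24897511-24902197) was measured at 869, 1089.6 and 1194 FPKM in leukemic replicates 1 to 3 and at 1259, 1375, 1607 and 1626 in preleukemic replicates 1 to 4. The groups did not overlap, and leukemic replicate 3 came nearest to preleukemic replicate 1. The log2 fold change was -0.48 (SE 0.14, adjusted p = 0.0567 by limma), or 1.40-fold lower. *Cd79b* (chr11:106311341-106314529) was measured at 495, 654 and 611 FPKM in leukemic replicates 1 to 3 and at 736, 627, 871 and 974 in preleukemic replicates 1 to 4. Leukemic replicate 2 lay above preleukemic replicate 2, so the groups overlapped. Its log2 fold change was -0.44 (SE 0.17, adjusted p = 0.114 by limma).

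The scaling of the samples moved *Vpreb2*, *Vpreb3* and the signaling chains across the threshold. The 7 samples had FPKM totals between 448022 and 539887, higher in each leukemic than in any preleukemic sample. When each sample was rescaled to the same FPKM total, all 6 genes were called lower (adjusted p from 0.0115 to 0.0390), as were 21.2% of all genes tested, and the median over all genes shifted to -0.18 on the log2 scale. Rescaling multiplies each sample by a constant, which moves highly expressed genes and the median by nearly the same amount. Differences relative to the median therefore stay close by construction. They were -1.31 for *Igll1*, -1.49 for *Vpreb1*, -0.47 for *Cd79a* and -0.43 for *Cd79b*, against -1.30, -1.48, -0.47 and -0.42 as deposited. With quantile normalization 5 of the 6 were called lower, against 8.60% of all genes tested, and *Vpreb2* was not (adjusted p = 0.0546). The direction of all 6 was lower under each of these scalings.

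**Figure D2:**
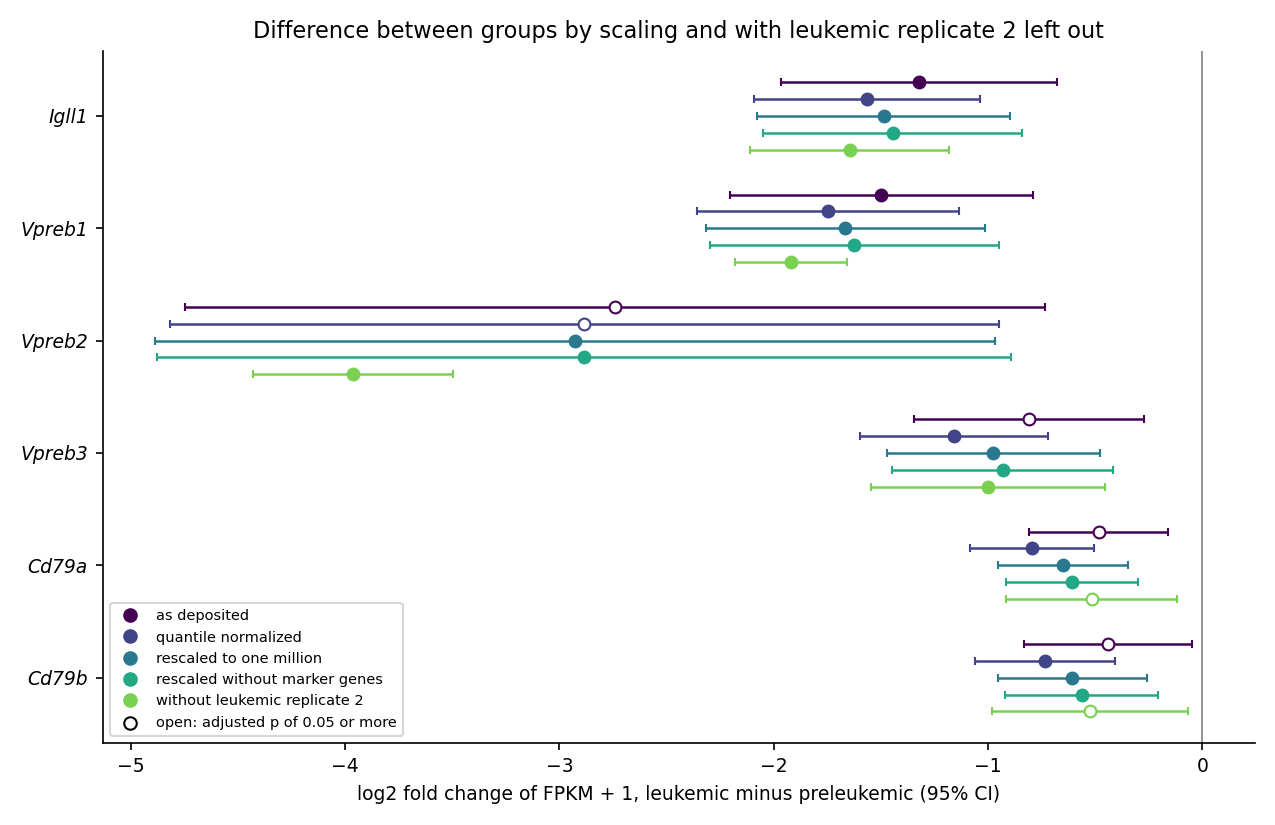
Log2 fold change of FPKM + 1, leukemic minus preleukemic, with its 95% confidence interval (x axis) for each gene under 4 scalings and with leukemic replicate 2 left out; filled points have an adjusted p under 0.05. All points lie below 0, and leaving out leukemic replicate 2 narrows the interval of *Vpreb2* to between -4.43 and -3.50.

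Within a sample, the ratio of 2 genes does not change when the sample is scaled by a constant. Ratios are given of FPKM as listed and were tested as log2 ratios of FPKM + 1. In preleukemic samples the 2 genes of the surrogate light chain stayed in step, with *Igll1* at 1.06, 1.001, 1.07 and 1.004 times *Vpreb1* in replicates 1 to 4. In leukemic replicates 2 and 3 the ratio was 1.02 and 1.03, and in leukemic replicate 1 it was 1.52. The groups overlapped, and the mean log2 ratio differed by 0.18 (2-sided exact permutation p = 0.571, adjusted over 4 ratios 0.761). That difference rests on leukemic replicate 1, without which it was -0.01.

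The ratio of the signaling chains to each other overlapped between the groups. *Cd79b* was at 0.570, 0.601 and 0.511 times *Cd79a* in leukemic replicates 1 to 3 and at 0.585, 0.456, 0.542 and 0.599 times in preleukemic replicates 1 to 4. The difference in mean log2 ratio was 0.04 (2-sided exact permutation p = 0.80, adjusted over 4 ratios 0.80), within the spread of either group, and it changed sign without leukemic replicate 2 (-0.01) or preleukemic replicate 2 (-0.04).

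*Igll1* was lower relative to *Cd79a* in each leukemic sample. It was at 1.10, 1.002, 0.980 and 1.003 times *Cd79a* in preleukemic replicates 1 to 4 and at 0.696, 0.857 and 0.312 times in leukemic replicates 1 to 3. Each leukemic ratio was below each preleukemic ratio, with a difference in mean log2 ratio of -0.84 (2-sided exact permutation p = 0.0571, adjusted over 4 ratios 0.228). Without leukemic replicate 3, which had the lowest ratio, the difference was -0.40. The p of 0.0571 is the smallest that 3 samples against 4 can give (35 labelings), so no ratio could pass 0.05. The ratio of *Vpreb2* to *Vpreb1* was 0.253, 0.280, 0.188 and 0.227 in preleukemic replicates 1 to 4 and 0.0424, 0.303 and 0.0699 in leukemic replicates 1 to 3. Leukemic replicates 1 and 3 lay below every preleukemic sample and leukemic replicate 2 above every one (difference in mean log2 ratio -1.24, 2-sided exact permutation p = 0.286, adjusted over 4 ratios 0.572). Without leukemic replicate 2 that difference was -2.05, a larger drop, and without leukemic replicate 1 it was smaller, at -0.67.

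**Figure D3:**
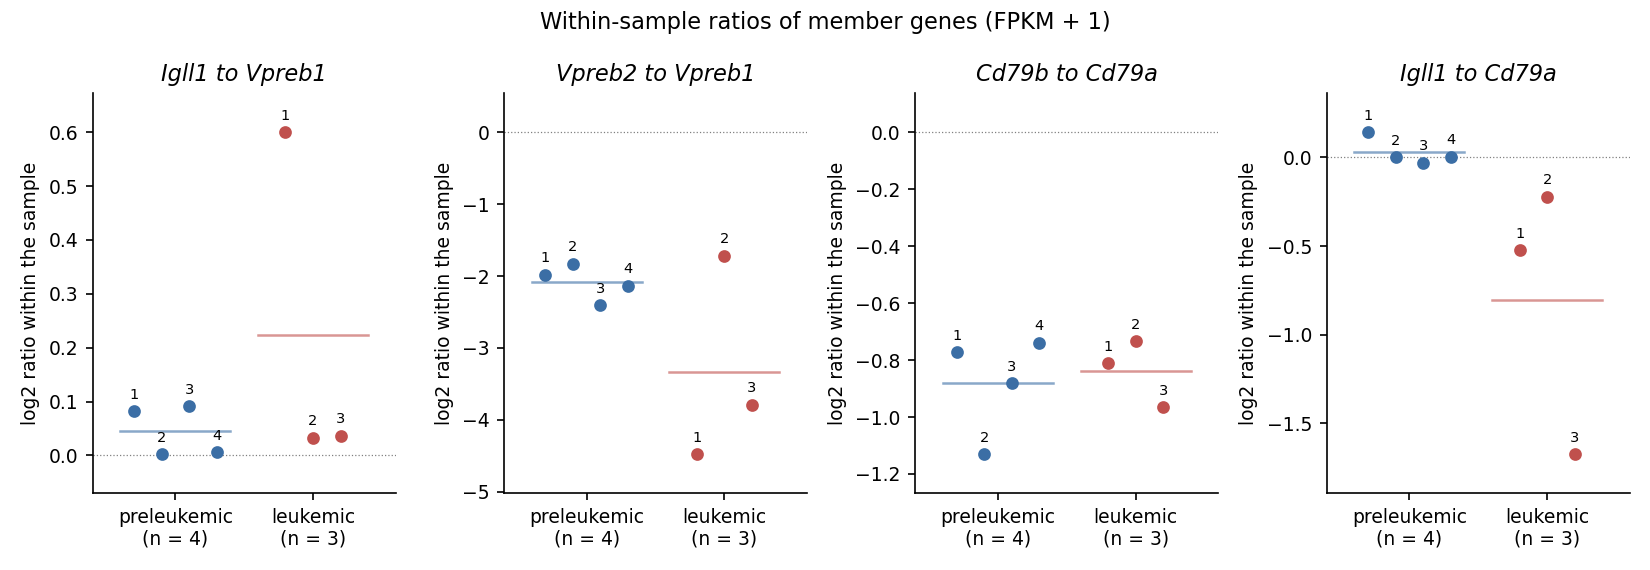
Log2 ratio of FPKM + 1 within each sample (y axis, not starting at the same value in each panel) for 4 pairs of genes, with 1 point per sample and the group mean as a line. The 3 leukemic values of the *Igll1* to *Cd79a* ratio (-0.52, -0.22 and -1.68) lie below the 4 preleukemic values (-0.03 to 0.14), and the other 3 ratios overlap.

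The order of the 6 genes was not the same in each leukemic sample. In preleukemic samples *Vpreb3* was highest (1925 ± 265 FPKM, SD, n = 4). The means of *Igll1*, *Cd79a* (1467 ± 179) and *Vpreb1* (1448 ± 136) lay within their spread between samples, and *Cd79b* (802 ± 152) and *Vpreb2* (341 ± 47.4) followed. In leukemic samples the means were 1134 ± 359 for *Vpreb3* and 1051 ± 166 for *Cd79a*, which overlapped. They were 637 ± 282 for *Igll1*, 587 ± 82.3 for *Cd79b* and 558 ± 308 for *Vpreb1*, 3 neighbours whose means lay within their spread between samples. *Vpreb2* had 106 ± 147. Within each sample of both groups, however, *Igll1* was above *Vpreb1* (ratios from 1.001 to 1.52). In leukemic replicate 3 *Cd79b* (611) was above *Igll1* (373) and *Vpreb1* (364), and in leukemic replicate 2 it was below both. Together the 6 genes held 1.47% to 1.79% of the FPKM total in preleukemic samples and 0.612%, 0.980% and 0.751% in leukemic replicates 1 to 3.

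The surrogate light chain genes had a wider relative spread in leukemic than in preleukemic samples, a difference that was not tested. How many of all genes tested shared it was not counted, so it cannot be called particular to these genes. In the paper's principal component analysis over the whole RNA-seq data, the preleukemic samples were also more alike than the leukemic ones. The coefficient of variation of *Igll1* was 44.2% over 3 leukemic and 8.62% over 4 preleukemic samples, and that of *Vpreb1* was 55.1% and 9.40%. For *Cd79a* it was 15.8% and 12.2%, and for *Cd79b* it was 14.0% and 18.9%. Leukemic replicate 2 had the highest leukemic value of *Igll1*, *Vpreb1*, *Vpreb2*, *Vpreb3* and *Cd79b*, while leukemic replicate 3 had the highest of *Cd79a*. The lowest leukemic values of *Igll1* and *Vpreb1* were in leukemic replicate 3, and those of the other 4 genes in leukemic replicate 1.

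Genes of pre-BCR signaling and of the pre-B program were read from lists chosen by function. The lists held kinases, adaptors, effectors, inhibitors, transcription factors, V(D)J recombination genes and immunoglobulin constant genes. Of 55 genes in 7 lists, 48 were in the table and 47 passed the filter. Of these 47, 5 were called lower and 0 higher by limma, against 6.26% of all genes tested called lower and 8.47% higher. Of the 5, 4 were transcription factors and 1 was a kinase. At an unadjusted p under 0.05, 18 of the 47 were lower and 2 higher, against 17.5% and 16.5% of all genes tested. The median log2 fold change of the 47 was -0.31, and that of all genes tested was -0.02. The list of immunoglobulin heavy and light chain constant genes had 0 of its 7 genes in the table, so the partner chain of the surrogate light chain was not analysed here. Under quantile normalization 10 of the 47 were called lower (8.60% of all genes tested), and with rescaling that left out markers of other cell types 16 were (16.7% of all genes tested), with 0 higher under both.

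Among 6 kinases that act next to the receptor, 1 was called lower by limma (3 lower and 0 higher at an unadjusted p under 0.05). *Blk*, a SRC-family kinase of B cells, was at 0.344, 1.79 and 1.66 FPKM in leukemic replicates 1 to 3 and at 4.26, 13.6, 12.5 and 25.2 in preleukemic replicates 1 to 4 (log2 fold change -2.58, SE 0.53, adjusted p = 0.0236 by limma). Its levels did not overlap and were low beside those of the receptor chains. Of 6 adaptors, 0 were called by limma (1 lower at an unadjusted p under 0.05), and the highest, *Blnk*, which links SYK to downstream enzymes, had 161 ± 20.4 and 237 ± 51.8 FPKM in leukemic and preleukemic samples with overlap (adjusted p = 0.0924 by limma). Of 13 effectors, 0 were called by limma (4 lower and 1 higher at an unadjusted p under 0.05). The highest, *Pik3cd*, which encodes a catalytic subunit of PI3-kinase, had 76.5 ± 36.5 and 150.4 ± 26.1 FPKM (log2 fold change -1.06, adjusted p = 0.0577 by limma). Of 7 inhibitors tested, 0 were called by limma (2 lower and 1 higher at an unadjusted p under 0.05), and the highest, *Csk*, the kinase that restrains SRC-family kinases, had 264 ± 17.8 and 226 ± 25.0 FPKM (log2 fold change 0.23, adjusted p = 0.169 by limma). The medians of the kinases (-0.42), adaptors (-0.15), effectors (-0.08) and inhibitors (-0.14) were nearer to that of all genes (-0.02) than the median of the 6 receptor chains (-1.07) was.

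Of 12 transcription factors that act in the pre-B program, 4 were called lower and 0 higher by limma (median log2 fold change -0.64). At an unadjusted p under 0.05, 6 of the 12 were lower and 0 higher. *Ebf1*, a B-lineage factor, had a log2 fold change of -0.70 (adjusted p = 0.00952 by limma) and kept its call whichever of the 7 samples was left out. *Pax5*, the B-lineage commitment factor, was at 106, 91.3 and 120.4 FPKM in leukemic replicates 1 to 3 and at 156, 193, 186 and 191 in preleukemic replicates 1 to 4 (log2 fold change -0.78, adjusted p = 0.0134 by limma). *Foxo1*, which acts at the *Rag* genes, had 57.2, 104 and 98.6 FPKM in leukemic and 144, 156, 179 and 176 in preleukemic replicates (log2 fold change -0.95, adjusted p = 0.0277 by limma). *Tcf3*, which encodes the E2A proteins, had a log2 fold change of -0.67 (adjusted p = 0.0369 by limma). In none of the 4 did the groups overlap. Without preleukemic replicate 3 or 4 only *Ebf1* of the 5 called genes stayed past the threshold, and without preleukemic replicate 2 only *Ebf1* and *Pax5* did, while *Tcf3* was also lost without preleukemic replicate 1 (adjusted p = 0.0670).

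None of the 3 V(D)J recombination genes was called by limma (2 lower at an unadjusted p under 0.05), and their median log2 fold change was -1.29. *Dntt*, the terminal transferase, had the highest level and overlapping groups (145 ± 73.5 and 207 ± 70.04 FPKM, adjusted p = 0.370 by limma). *Rag1* and *Rag2*, the recombinase genes, named after their values were seen, had log2 fold changes of -1.52 and -1.29 with no overlap (adjusted p = 0.0668 and 0.0727 by limma).

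**Figure D4:**
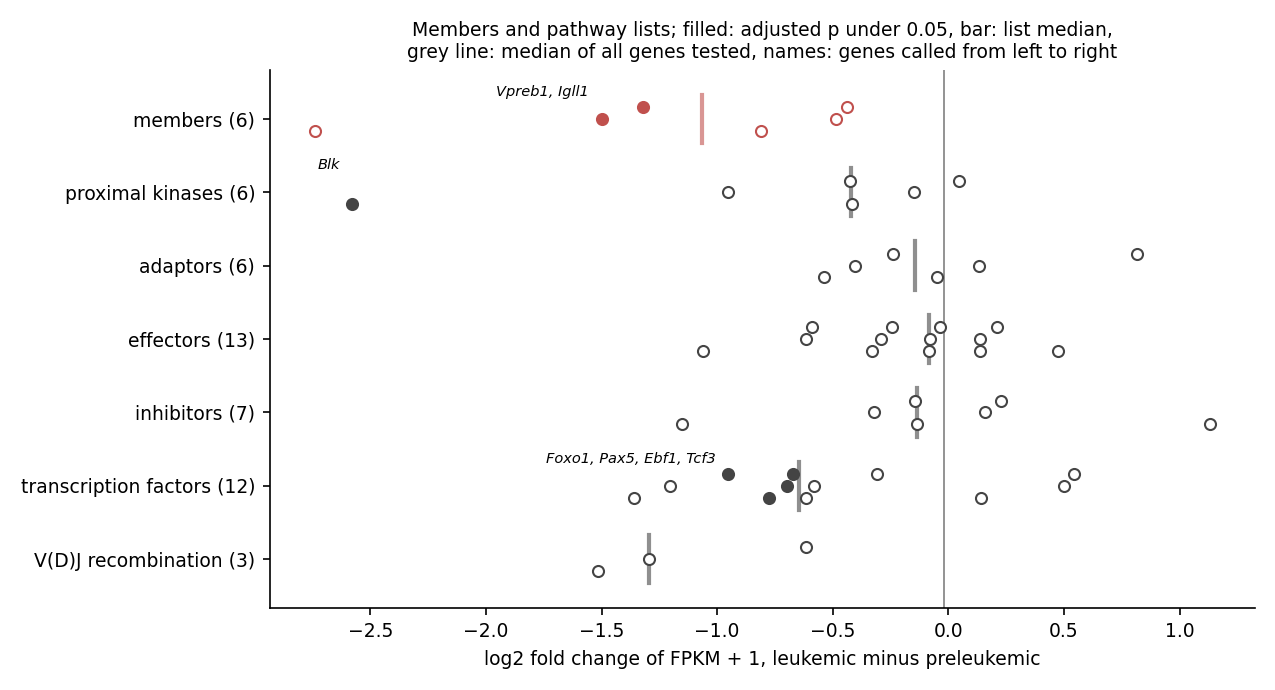
Log2 fold change of FPKM + 1, leukemic minus preleukemic (x axis), of the 6 receptor chain genes (red) and 47 genes in 6 pathway lists (grey), where filled points have an adjusted p under 0.05, bars are medians and the vertical line is the median of all genes tested. The median of the 6 genes is at -1.07 and that of the transcription factors at -0.64.

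The genes with the profile most like each receptor chain were found by the root mean square (RMS) difference of log2(FPKM + 1), after subtracting each gene's mean, over the 7 samples and 7063 tested genes with a mean of at least 10 FPKM. Nearest to *Igll1* were *Plxdc1*, a plexin-domain gene (RMS 0.181), and *Hdac11*, a histone deacetylase gene (0.190). *Vpreb1* came after them at 0.198. Close to *Vpreb1* was the calcium-dependent kinase gene *Camk2d* (0.169), and 3 genes in all were closer to it than *Igll1*. *Vpreb2* had no close match, with the sodium channel subunit gene *Scn4b* at 0.415 and the calpain gene *Capn2* at 0.476, and 30 genes were closer to it than *Vpreb1* (0.996).

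The other 3 chains had closer matches. *Vpreb3* was nearest to the adaptor gene *Grap2* (0.0791) and to *Slain1* (0.0817), and *Cd79a* to *Gpr107* (0.0454) and to the proteasome activator gene *Psme2b* (0.0504). *Cd79b* was nearest to *Limd2* (0.0378) and *Natd1* (0.0804), both on chromosome 11 as it is. The RMS between *Cd79a* and *Cd79b* was 0.134, with 202 genes closer to *Cd79a* and 37 closer to *Cd79b*. A gene that varies little has small differences from any other such gene, so these values are not comparable between a chain with a wide spread and one with a narrow spread.

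The neighbours of these loci were mostly not called, as was the case for all genes tested, of which 14.7% were called in either direction. Of the 6 tested genes nearest to the *Igll1* and *Vpreb1* pair, 3 on each side, 1 was called lower, the topoisomerase gene *Top3b* (log2 fold change -0.48, adjusted p = 0.0172 by limma), which lies 1636 bases beyond *Vpreb1*. Around *Vpreb2* 0 of 6 were called by limma (3 lower and 2 higher at an unadjusted p under 0.05), with log2 fold changes from -0.47 to 0.40. Around *Vpreb3* 1 of 6 was called, *Gm867*, higher (log2 fold change 2.78, adjusted p = 0.0192 by limma). Around *Cd79a* 1 of 6 was called, *Cd177*, a neutrophil surface gene, higher (log2 fold change 1.72, adjusted p = 0.0459 by limma), and around *Cd79b* 1 of 6, the sodium channel gene *Scn4a*, lower (log2 fold change -1.16, adjusted p = 0.0175 by limma). The median log2 fold change of all tested genes on chromosome 16 was -0.08, with 32 of 336 called lower and 18 higher.

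None of the 3 genes of the sort gate was called by limma (1 lower at an unadjusted p under 0.05). *Enpep*, which encodes the BP-1 antigen used for the sort, was at 19.1, 102 and 77.2 FPKM in leukemic replicates 1 to 3 and at 134, 210.2, 180 and 191 in preleukemic replicates 1 to 4, with no overlap (log2 fold change -1.70, adjusted p = 0.0688 by limma). The other two, *Spn* (CD43; log2 fold change -0.35, adjusted p = 0.275 by limma) and *Ptprc* (CD45; -0.26, adjusted p = 0.354), had overlapping groups. Of 9 B-cell precursor markers tested, 2 (*Ebf1* and *Pax5*) were called lower and 0 higher by limma, against 6.26% and 8.47% of all genes tested. *Ebf1*, *Pax5*, *Rag1*, *Rag2*, *Dntt* and *Blnk* are also in the pathway lists, so these counts are not separate from those above. At an unadjusted p under 0.05, 7 of these 9 were lower and 0 higher, against 17.5% and 16.5% of all genes tested. *Cd24a*, the highest, had overlapping groups and went the other way, with 582 ± 209 and 412 ± 78.6 FPKM in leukemic and preleukemic samples (log2 fold change 0.44, adjusted p = 0.288 by limma). Of 4 mature B markers tested, 0 were called by limma, also at an unadjusted p under 0.05 (0 in each direction), and *Ms4a1* led with 50.4 ± 30.3 and 70.6 ± 24.2 FPKM.

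Of 18 erythroid markers tested, 18 were called higher in leukemic samples, and their sum over 19 genes ran from 5763 to 26562 FPKM in leukemic and from 424 to 2846 in preleukemic samples, led by *Hbb-b1*. Of 11 macrophage markers, 7 were called higher (sums of 166 to 368 and 39.4 to 90.5 FPKM, led by *Lyz2*). Of 10 neutrophil markers, 6 were called higher (sums of 1447 to 1795 and 151 to 877 FPKM, led by *S100a8*). Of 3 plasma cell markers, *Jchain* was called higher, with 112 ± 30.8 and 20.5 ± 1.49 FPKM. The single progenitor marker tested, *Kit*, was called higher at 3.45 ± 1.67 and 0.515 ± 0.416 FPKM, and 0 of 7 T and NK markers were called by limma (1 lower and 2 higher at an unadjusted p under 0.05), led by *Lck*. No list was at 0 in either group, though the erythroid gene *Hbb-bs* was listed at the table's floor in all samples.

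Among the leukemic samples, the erythroid and macrophage sums were highest in replicate 2 (26562 and 368 FPKM), then in replicate 3 (12956 and 261 FPKM), and lowest in replicate 1, which is also the order of *Vpreb2*, *Vpreb3* and *Cd79b*. *Igll1* and *Vpreb1* were highest in replicate 2 too, but lowest in replicate 3. The neutrophil sum had another order, highest in replicate 3 (1795 FPKM), then in replicate 1 (1583 FPKM), and lowest in replicate 2 (1447 FPKM). These orders of 3 samples were not tested. With the samples rescaled after the erythroid, macrophage and neutrophil markers were taken out, the 6 genes were all called lower, as were 16.7% of all genes tested, with adjusted p from 0.0152 to 0.0475. The part that other cells in the sort play in the lower receptor chain levels was not tested.

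**Figure D5:**
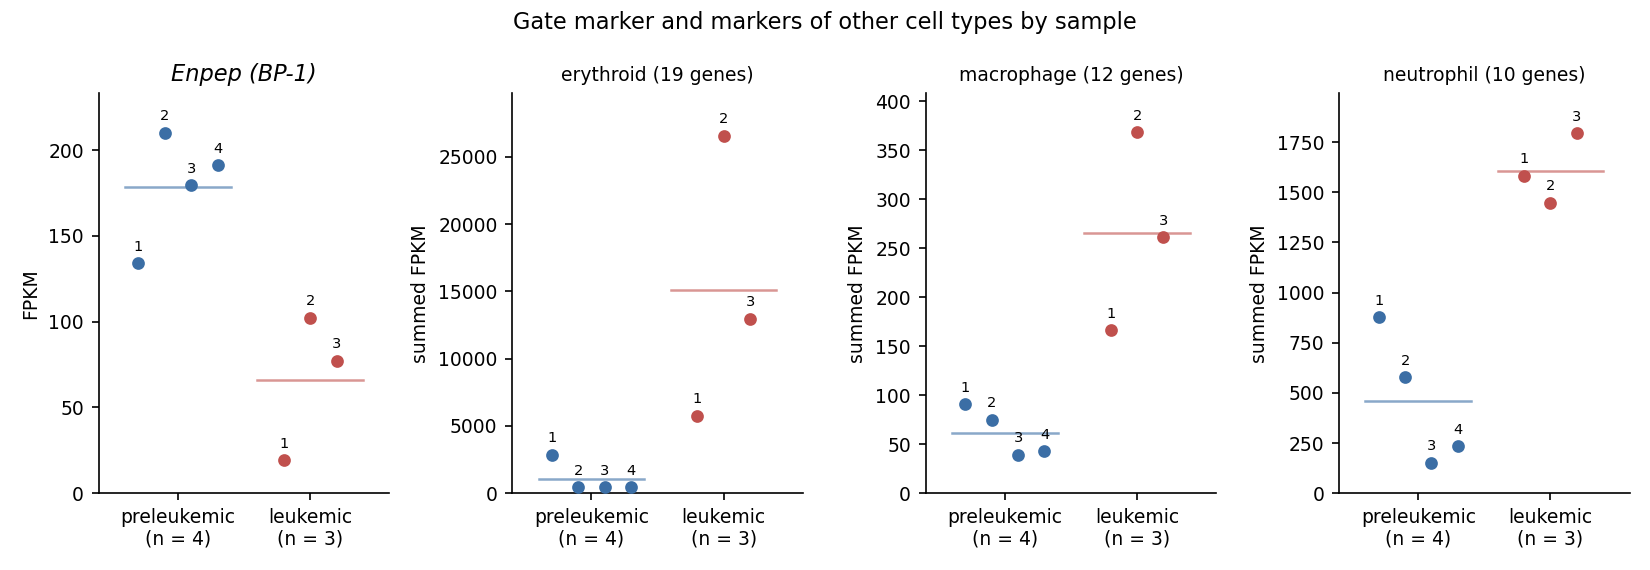
FPKM of the gate gene *Enpep* and summed FPKM of erythroid (19 genes), macrophage (12 genes) and neutrophil (10 genes) markers (y axes, from 0) in each sample, with replicate numbers and group means as lines. The 3 leukemic samples lie below the preleukemic samples for *Enpep* and above them for each marker sum, and preleukemic replicate 1 has the highest erythroid sum of its group (2846).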

How the data were processed

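The authors deposited 1 table of FPKM values per gene and sample, with a floor of 0.01 and no counts. RNA was taken from sorted cells with a DNA/RNA kit, and stranded mRNA libraries were sequenced. The submitters' processing notes name STAR 2.5.0b, bedtools 2.17.0, Cufflinks 2.2.1, Bowtie, DESeq2 and the mm10 build, with no role for each. Count models cannot be applied to FPKM and none was used, but the filter of the study (a sum of at least 10, here over FPKM) and its FDR of 0.05 were kept. From the steps of low values in 2243 genes with a single transcript, with an assumed fragment length of 200 bases, the depth was estimated at 13300000 to 16100000 fragments per sample (79.4% to 85.3% of 190 to 234 low values per sample within 0.1 of a whole fragment).

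The groups were compared with limma 3.58.1 (lmFit, then eBayes with an intensity trend, in R 4.3.3). The response was log2(FPKM + 1), on which low genes show less than their full change, and no covariate was used. Benjamini-Hochberg adjustment covered the 10541 genes tested. Ratios were compared with exact permutation tests over 35 labelings in scipy 1.17.1. Sequences came from RefSeq (GRCm38.p6) and GENCODE M21 and were aligned with Biopython 1.88 (figures, matplotlib 3.10.9).

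The genes described and the lists were chosen with earlier results of these data known. Named are the 6 genes, the called genes of each pathway list (otherwise the one with the highest mean), the 2 genes nearest in profile to each of the 6, called neighbours, and the highest gene of each marker list. Of the genes this rule names, 1 is not reported here. Alternatives were a pseudocount of 0.1, no filter, a sum of at least 70, quantile normalization, rescaling to a common total with and without marker genes, no intensity trend, the replicate number as a block, and each sample left out in turn.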

Additional observations from a re-analysis of the deposited data

Results flagged for a closer look

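Among 25 sets of 4 preleukemic values examined (the 6 genes, their 4 ratios, the called pathway genes, *Enpep* and the marker sums), 1 held a sample far from the other 3, and chance gives about 1 in 20. The summed erythroid markers were 2846 FPKM in preleukemic replicate 1 and 448, 435 and 424 in replicates 2 to 4, so that the gap took 0.990 of the range, above the critical value of the Dixon test for 4 samples. In that sample *Igll1*, *Vpreb1* and *Cd79a* were at 1390.15, 1313 and 1259 FPKM, within or just below the range of the other 3. Without it *Vpreb1* alone of the 6 genes was called lower (adjusted p of *Igll1* 0.0509).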

How the results depend on the processing

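Each of the 6 genes had a lower leukemic mean under each of the 15 alternatives, but several of these could not have changed the direction. No filter, the sum of at least 70 FPKM and no intensity trend left each log2 fold change as it was. Leaving out a sample cannot reverse a gene whose groups do not overlap, and the replicate block gave the log2 fold changes without preleukemic replicate 4. The calls moved more. Among all genes tested, 1553 were called as deposited, and in separate fits, whose shared genes were not counted, 951 were called with a sum of at least 70 FPKM, 2917 after rescaling to a common total (2231 lower and 686 higher, against 660 and 893 as deposited), 2437 after rescaling without marker genes (1749 and 688), 1661 with quantile normalization (907 and 754), and 149 to 1620 with 1 sample left out. Of the 6 genes, 2 were called lower as deposited, 5 with quantile normalization, 6 with each rescaling, and 0 to 4 with 1 sample left out: 4 without leukemic replicate 2, 1 without preleukemic replicate 1, and 0 without preleukemic replicate 2, 3 or 4, though at an unadjusted p under 0.05 limma found 6, 5 and 5 of them lower, against 14.1%, 12.6% and 12.0% of all genes tested.

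Log2 fold changes that passed the threshold under an alternative but not as deposited were, with quantile normalization, -1.16 for *Vpreb3*, -0.80 for *Cd79a* and -0.735 for *Cd79b*. After rescaling to a common total they were -2.93 for *Vpreb2*, -0.98 for *Vpreb3*, -0.65 for *Cd79a* and -0.61 for *Cd79b*, and after rescaling without marker genes -2.89, -0.93, -0.61 and -0.56. With 1 sample left out the ranges were -1.65 to -0.99 for *Igll1*, -1.92 to -1.26 for *Vpreb1*, -3.97 to -1.99 for *Vpreb2*, -1.001 to -0.52 for *Vpreb3*, -0.58 to -0.35 for *Cd79a* and -0.55 to -0.32 for *Cd79b*. The cause was not tested.

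Of the pathway genes, 5 of 47 tested were called lower as deposited. With a sum of at least 70 FPKM 5 of 44 were, but not the same 5, because *Blk* did not pass that filter. With quantile normalization 10 were called lower, and after rescaling without marker genes 16 were. The ratio difference of *Cd79b* to *Cd79a* ran from -0.039 to 0.11 (-0.039 without preleukemic replicate 2 and -0.0070 without leukemic replicate 2) with 1 sample left out and that of *Igll1* to *Vpreb1* from -0.011 (without leukemic replicate 1) to 0.27, so both changed sign. That of *Igll1* to *Cd79a* stayed between -1.13 and -0.40 and that of *Vpreb2* to *Vpreb1* between -2.05 and -0.67.

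With the replicate number as a block, 0 of all genes were called by limma (1122 lower and 1307 higher at an unadjusted p under 0.05), and 0 of the 6 (5 at an unadjusted p under 0.05). Under the replicate block *Igll1* had a log2 fold change of -1.28 and *Vpreb1* of -1.44, both with an adjusted p of 0.145 by limma. These log2 fold changes equal those without preleukemic replicate 4, which has no leukemic sample of its number and so plays no part in them. The labels do not say that a number marks a shared litter or day. Deviations of same-numbered samples correlated at 0.03, 0.05 and -0.09 (Pearson), and those of differently numbered samples at -0.11 to 0.11. With so few samples, these correlations cannot show whether same-numbered samples share a litter or day.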
